A study of Mus musculus with 7 samples.

Results

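Cholesterol and fatty acid synthesis genes were followed through 7 libraries of 3′ RNA-seq, a method that reads polyadenylated transcripts from their 3′ end. Of 28 listed genes, 27 were found by gene number as rows of their own among the 24990 features of the tables. These are 18 enzymes of the sterol pathway, 5 enzymes of fatty acid synthesis and 4 regulators or sterol carriers. The fatty acid desaturase Scd2 shares a merged row with the microRNA gene Mir5114 and was not counted, and its row is given separately. A filter on low counts kept 25 of the 27 for testing, and the sterol enzymes Hmgcs1 and Tm7sf2 fell below it.

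The libraries came from embryoid bodies, the clumps of differentiating cells grown from embryonic stem cells, here of the mouse line R1. Stem cells were hung as drops of 500 cells in 27 µl of a medium with serum and no Lif, and aggregates were collected on day 4. The study concerns Meteor, a long non-coding RNA locus tied by the series' title to the level of the T-box factor Eomes. By title, 1 library came from a CRISPR knockdown of Meteor (KD), 1 from an empty-vector control (Ctrl), 1 from cells with the Meteor promoter inverted (pInv), 2 from cells without that promoter (pKO1 and pKO2) and 2 from wild-type cells (WT1 and WT2). The genotype field goes against these titles for 5 libraries. It gives promoter knockout for WT1 and WT2, promoter inversion for pKO1, and wild type for pKO2 and pInv. Every direction below follows the titles and depends on them. Separate cultures or clones within WT or pKO are not stated in the labels, so tests measure only the spread between these libraries.

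The smallest library (WT2) summed to 1898350 expected counts and the largest (WT1) to 2564478, and 1 feature, not named in the reference used, took 12.9% of them in pInv and 17.4% to 24.1% in the other 6 libraries. Levels are given as CPM, the counts scaled by library size and by a TMM factor to a common total. The upper limit for a gene without counts (3 counts) was 1.12 CPM in WT1 and 1.79 CPM in WT2, and such limits and all intervals below cover counting error only. All 9 markers of pluripotent and epiblast cells were present in every library, with summed levels of 2531 to 3357 CPM. The stem cells had been depleted of feeder fibroblasts on gelatin, and 3 to 6 of 9 feeder markers were detected in a library, with sums of 2.53 to 7.61 CPM. Markers of the primitive streak and nascent mesoderm were lowest in WT2, at 586 CPM with 9 of 10 detected, against 1289 to 2706 CPM in the other 6 libraries. In bulk samples, fewer cells of a type and less RNA per cell cannot be told apart.

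Cholesterol is built from acetyl-CoA through mevalonate, isoprenoids, squalene and lanosterol, while fatty acids are built from acetyl-CoA and malonyl-CoA. Both routes are switched on by SREBP proteins, encoded by Srebf1 and Srebf2, which are held in the endoplasmic reticulum by Insig proteins when sterols are plentiful. SREBP-2 acts chiefly on sterol genes and SREBP-1c on fatty acid genes, and both often act together with the factors NF-Y and Sp1. Dividing embryonic cells need both lipids for new membranes.

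Promoter sequences of 300 bases around annotated starts were taken from RefSeq on GRCm38.p6, a later build than the mm9 of the files. They held 22 of the 27 genes, with 27 starts. Shown here are Cyp51 and Msmo1, which stood highest in pInv, Insig1, which stood lowest there, and Fasn, which stood highest in WT2. Capitals mark the motifs searched on both strands, namely the core of the sterol regulatory element, TCACNCCAC, the full element, which is that core with an A before it, the NF-Y box CCAAT, the E-box CACGTG and the Sp1 box GGGCGG.

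Cyp51 (chr5:4104648-4104947, minus strand): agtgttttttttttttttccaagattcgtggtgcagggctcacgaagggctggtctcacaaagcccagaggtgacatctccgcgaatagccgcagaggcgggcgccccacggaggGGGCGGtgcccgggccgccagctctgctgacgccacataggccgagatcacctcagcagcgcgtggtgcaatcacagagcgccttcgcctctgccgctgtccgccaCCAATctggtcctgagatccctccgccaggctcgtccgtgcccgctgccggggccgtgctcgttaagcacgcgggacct

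Msmo1 (chr8:64733529-64733828, minus strand): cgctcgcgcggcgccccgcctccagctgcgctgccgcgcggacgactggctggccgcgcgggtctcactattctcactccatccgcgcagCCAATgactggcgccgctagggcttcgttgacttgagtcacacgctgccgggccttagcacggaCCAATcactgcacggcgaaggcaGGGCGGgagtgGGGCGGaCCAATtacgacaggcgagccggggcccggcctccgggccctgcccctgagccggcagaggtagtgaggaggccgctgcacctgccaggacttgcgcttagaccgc

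Insig1 (chr5:28071162-28071461, plus strand): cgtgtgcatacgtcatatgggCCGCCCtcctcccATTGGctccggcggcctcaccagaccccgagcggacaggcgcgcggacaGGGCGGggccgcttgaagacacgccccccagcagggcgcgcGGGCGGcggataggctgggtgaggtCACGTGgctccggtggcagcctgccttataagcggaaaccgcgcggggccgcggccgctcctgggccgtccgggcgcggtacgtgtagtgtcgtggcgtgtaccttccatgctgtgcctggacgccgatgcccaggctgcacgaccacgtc

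Fasn (chr11:120824498-120824797, minus strand): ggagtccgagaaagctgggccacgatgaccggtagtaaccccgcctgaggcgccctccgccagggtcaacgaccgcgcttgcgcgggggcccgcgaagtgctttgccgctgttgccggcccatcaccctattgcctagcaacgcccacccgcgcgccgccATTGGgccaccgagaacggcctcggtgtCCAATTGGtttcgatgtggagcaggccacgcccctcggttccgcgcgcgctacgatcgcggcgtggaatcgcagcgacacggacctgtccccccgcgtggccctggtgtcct

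Msmo1 holds 3 NF-Y boxes and 2 Sp1 boxes, and Cyp51 holds 1 of each. The Fasn window holds 3 NF-Y boxes, a pair of which overlap, and Insig1 holds 1 NF-Y box, 1 E-box and 3 Sp1 boxes. Across the genes, 20 of 27 starts (74.1%) held an NF-Y box and 20 of 27 an Sp1 box, against 37.4% and 35.7% of all 32851 starts in the table. An E-box stood in 4 of 27 starts (14.8%), against 7.15% of all. The sterol element core was found at 1 start, that of Hmgcs1, against 1.24% of all starts, and the full element at none, against 0.234% of all. These are matches of letters and do not show binding.

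Each tested gene was set against its own median over the 7 libraries. Of all 10265 tested genes, 44.4% stood above it in KD, 40.4% in Ctrl, 43% in pInv, 41.5% in pKO1, 41.9% in pKO2, 42.6% in WT1 and 44.9% in WT2. Of the 16 tested sterol enzymes, 10 stood above in KD and 0 in Ctrl, where 14 stood below, against 42% of all tested genes below in Ctrl. In pInv 13 of 16 stood above, against 7 in pKO1, 5 in pKO2, 7 in WT1 and 6 in WT2. The median log2 distance of the sterol enzymes was 0.01 in KD, −0.25 in Ctrl and 0.36 in pInv, against 0 over all tested genes in each library. Among the 5 fatty acid enzymes, 1 stood above its median in KD and 0 in Ctrl. The fatty acid enzymes were above in 4 of 5 cases in pInv and in 5 of 5 in WT2, with median log2 distances of 0.39 and 0.57. Over both routes and the regulators, pInv held the highest level of the 7 libraries for 6 of 25 genes (24%), against 13.8% of all tested genes, and the lowest for 2, against 12.6%. KD held the highest for 3, against 20.1%, and Ctrl the lowest for 7 (28%), against 10.6%. For both routes more genes stood above their median in pInv, and fewer in Ctrl, than over all tested genes. In WT2 all 5 fatty acid enzymes stood above, while 6 of its sterol enzymes stood above and 8 below.

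**Figure D1:**
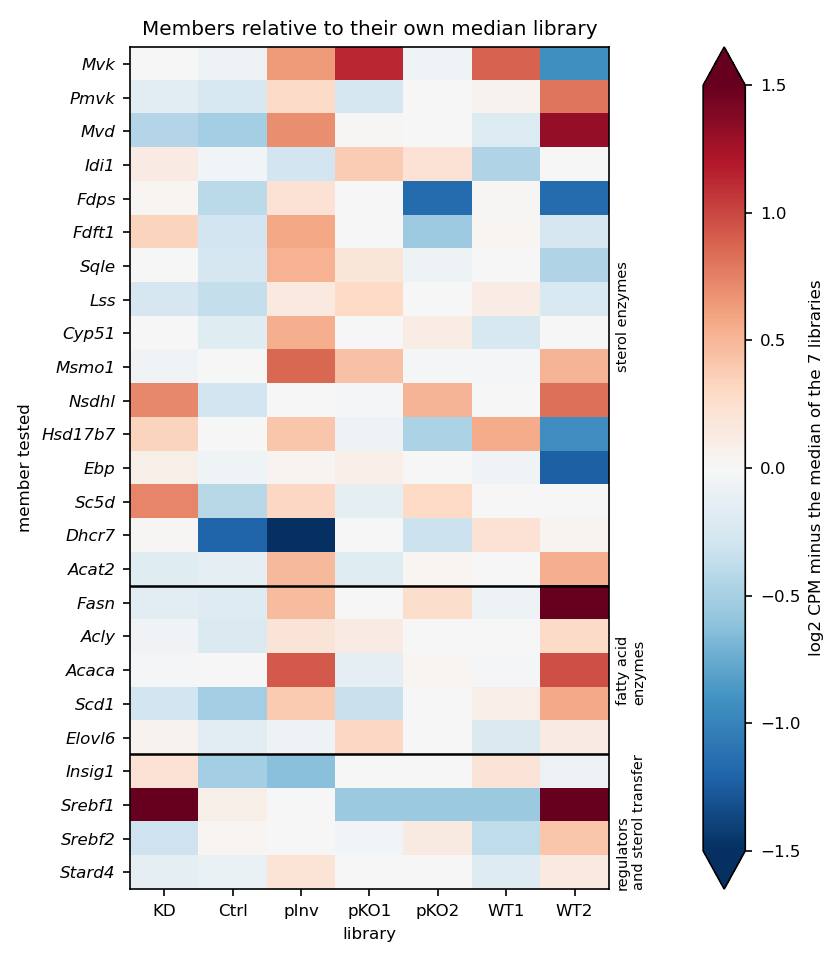
Level of each tested gene in each library, as log2 CPM minus the median of the 7 libraries (colour, red above and blue below), with sterol enzymes, fatty acid enzymes and regulators separated by black lines. The pInv column is mostly red (13 of 16 sterol enzymes above their median), the Ctrl column has 0 of 16 above, and all 5 fatty acid enzymes are red in WT2.

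The comparison of pInv with WT asks what inversion of the Meteor promoter does. Enzymes from farnesyl diphosphate to lanosterol stood above both WT libraries in pInv, some of them narrowly. Lss, which closes the sterol ring, had 11.8 CPM in pInv and 11.6 and 8.96 CPM in WT, and pKO1 was higher at 13.3 CPM. Squalene epoxidase (Sqle), which makes the first oxygenated sterol precursor, had 54.9 CPM in pInv, 43.3 and 35.9 CPM in pKO, 38.1 and 27.5 CPM in WT, 38.2 CPM in KD and 31.8 CPM in Ctrl. Squalene synthase (Fdft1) had 119.5 CPM in pInv, 79.9 and 54.3 CPM in pKO, 81.7 and 66.9 CPM in WT, 101 CPM in KD and 65.2 CPM in Ctrl. Lanosterol demethylase (Cyp51) had 228 CPM in pInv, 156 and 169 CPM in pKO, 131 and 155 CPM in WT, 156 CPM in KD and 136 CPM in Ctrl. For Sqle, Fdft1 and Cyp51 pInv was the highest of the 7 libraries, by 1.27, 1.19 and 1.35 times over the next one. Methylsterol oxidase (Msmo1), which acts later than Cyp51, had 87.4 CPM in pInv, 64.7 and 47.0 CPM in pKO, 47.0 and 68.1 CPM in WT, 46.0 CPM in KD and 47.5 CPM in Ctrl. Farnesyl diphosphate synthase (Fdps) had 60.4 CPM in pInv, 51.8 and 22.9 CPM in pKO, 52.6 and 22.7 CPM in WT, 52.9 CPM in KD and 38.9 CPM in Ctrl. Fdps and Msmo1 were highest in pInv too, but the Fdps level of pInv lay close to those of WT1 and pKO1.

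The last enzyme of the route went the other way. Dhcr7, which makes cholesterol from its final precursor, had 2.53 CPM in pInv (6 counts), 10.5 and 8.17 CPM in pKO, 12.3 and 10.8 CPM in WT, 10.6 CPM in KD and 4.04 CPM in Ctrl. It was lowest in pInv, next lowest in Ctrl, and the groups did not overlap between pInv and either pKO or WT. The SREBP retention protein Insig1 was also lowest in pInv, at 5.49 CPM, against 9.04 and 8.99 CPM in pKO and 10.4 and 8.36 CPM in WT, with 10.6 CPM in KD and 6.07 CPM in Ctrl.

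In numbers, pInv exceeded WT by a log2 difference of 0.72 (SE 0.40) for Sqle, 0.68 (SE 0.37) for Fdft1, 0.67 (SE 0.32) for Cyp51, 0.66 (SE 0.62) for Fdps and 0.60 (SE 0.40) for Msmo1. Dhcr7 differed by −1.86 (SE 0.67) and Insig1 by −0.70 (SE 0.57). With Benjamini-Hochberg adjustment, edgeR's quasi-likelihood test called no gene (0 of 10265, 0%), and DESeq2 and limma on log2(TPM + 1) also called 0. At an unadjusted p under 0.05 the test gave 152 genes (1.48%), and 1 of the 25 tested pathway genes, Dhcr7, was among them. Above both WT libraries stood 9 of the 25 (36% of them), against 29% of all tested genes, and below both stood 3, against 28%. Over all 25, the share above both thus lies near that of all tested genes, but the lists differed. Above both stood 8 of 16 sterol enzymes, 0 of 5 fatty acid enzymes and 1 of 4 regulators. Below both stood 2 sterol enzymes, 0 fatty acid enzymes and 1 regulator. Of the 16 sterol enzymes, 11 had a positive and 5 a negative log2 difference, with a median of 0.33. Over all tested genes the median was −0.01 and 48.6% were positive. Leaving out WT2 gave a sterol median of 0.21 and leaving out WT1 gave 0.36. With 1 library, pInv took its spread from pKO and WT.

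**Figure D2:**
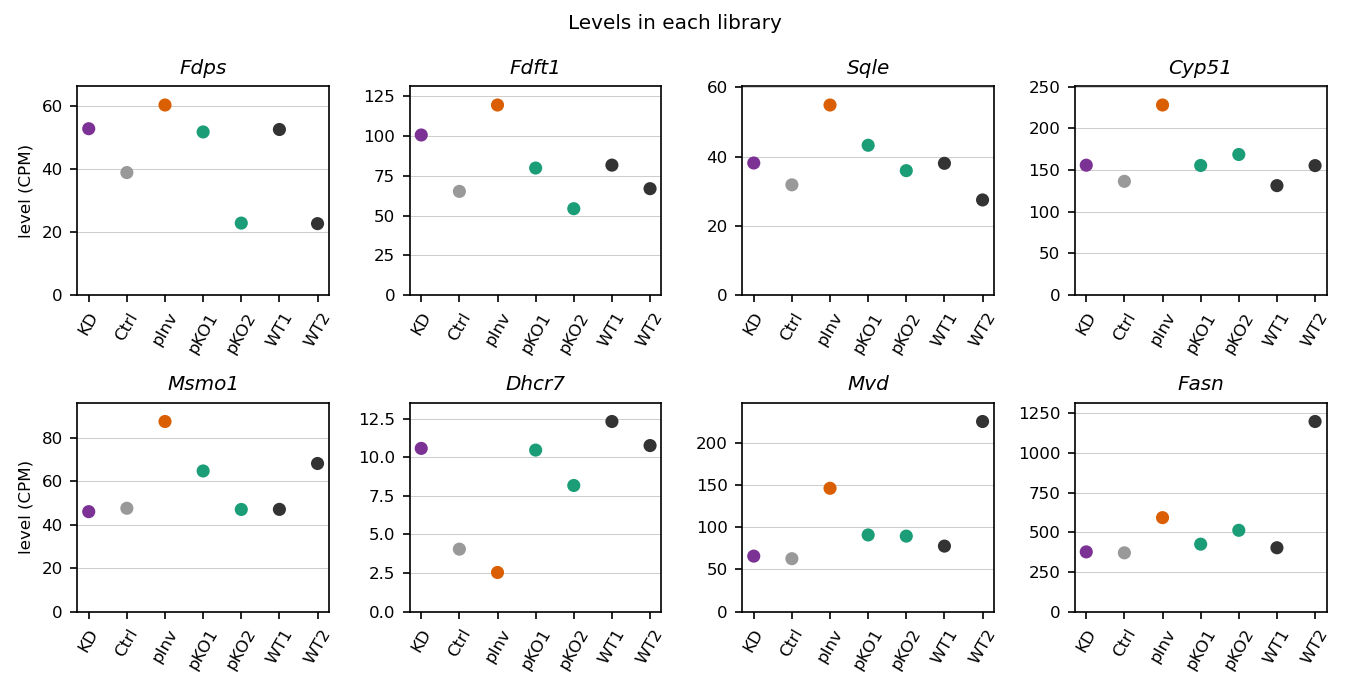
Level in CPM (vertical axes, from 0) of 8 genes in each library (horizontal axes), 1 point per library. Fdps, Fdft1, Sqle, Cyp51 and Msmo1 are highest in pInv, Dhcr7 is lowest in pInv at 2.53 CPM, and Mvd and Fasn are highest in WT2.

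Fatty acid enzymes did not separate pInv from WT as a group, with 3 of 5 log2 differences positive and a median of 0.04. Fatty acid synthase (Fasn) had 592.5 CPM in pInv, 425 and 513 CPM in pKO, 403 and 1199 CPM in WT, 376 CPM in KD and 371 CPM in Ctrl. Acetyl-CoA carboxylase (Acaca), the committing step, had 62.9 CPM in pInv, 29.5 and 33.5 CPM in pKO, 32.1 and 65.1 CPM in WT, 32.2 CPM in KD and 32.9 CPM in Ctrl. The desaturase Scd1 had 53.2 CPM in pInv, 31.9 and 40.4 CPM in pKO, 43.3 and 60.3 CPM in WT, 33.1 CPM in KD and 27.8 CPM in Ctrl. For all of these pInv lay between the 2 WT libraries and above both pKO libraries. Without WT2 the log2 difference of pInv from WT was 0.55 for Fasn and 0.95 for Acaca, and without WT1 it was −1.02 and −0.05, so the direction turned with the WT library used.

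Set against pKO, pInv was higher in 10 of 16 tested sterol enzymes and 4 of 5 fatty acid enzymes. The median log2 difference was 0.43 for the sterol enzymes and 0.34 for the fatty acid enzymes, against 0 over all tested genes, of which 49.4% were positive. The comparison asks whether inverting the promoter differs from deleting it. Fdft1 differed by 0.83 (SE 0.37), Acaca by 0.98 (SE 0.48), Msmo1 by 0.64 (SE 0.40) and Dhcr7 by −1.57 (SE 0.67). None of the 25 passed in edgeR's test (adjusted p = 1 for each; 0 of 10265 genes, 0%), DESeq2 and limma on log2(TPM + 1) called 0, and 153 genes (1.49%), Dhcr7 among them, had an unadjusted p under 0.05. pInv lay above both pKO libraries for 16 of 25 pathway genes (64%), against 34.2% of all tested genes, and below both for 4, against 31.5%. The 16 include Pmvk and Mvd, which act on mevalonate phosphates, Hsd17b7 and Sc5d of the late sterol steps, Acat2, which joins acetyl-CoA units at the start, and Acly, which supplies cytosolic acetyl-CoA. Those below were Idi1, which isomerises isopentenyl diphosphate, Dhcr7, the elongase Elovl6 and Insig1.

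Between pKO and WT, the genes that were lower in pKO were mainly those with a high level in WT2. The comparison asks what loss of the promoter does. Fasn averaged 469 ± 61.9 CPM in pKO and 801 ± 563 CPM in WT (SD, n = 2 each). Mevalonate diphosphate decarboxylase (Mvd) had 90.8 and 89.5 CPM in pKO, 77.6 and 225 CPM in WT, 146 CPM in pInv, 65.7 CPM in KD and 62.7 CPM in Ctrl. Phosphomevalonate kinase (Pmvk) had 35.2 and 42.1 CPM in pKO, 43.7 and 74.1 CPM in WT, 51.5 CPM in pInv, 37.2 CPM in KD and 35.4 CPM in Ctrl. WT2 held the highest level of the 7 libraries for 9 of 25 pathway genes (36%), against 24.7% of all tested genes, and the lowest for 5, against 27.6%. By list it was highest for 4 of 5 fatty acid enzymes, 4 of 16 sterol enzymes and 1 of 4 regulators. All 5 genes lowest in WT2 were sterol enzymes. The 9 were Fasn, Acly, Acaca, Scd1, Mvd, Pmvk, Acat2, the sterol dehydrogenase Nsdhl and Srebf2, and the 5 were Fdps, Sqle, Hsd17b7, the sterol isomerase Ebp and mevalonate kinase (Mvk). Markers of the streak and nascent mesoderm were lowest in WT2 as well, and their part in these levels was not tested.

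The log2 difference of pKO from WT was −0.77 (SE 0.47) for Fasn, −0.74 (SE 0.46) for Mvd, −0.59 (SE 0.36) for Pmvk, −0.60 (SE 0.40) for Acaca and −0.50 (SE 0.33) for Scd1. Without WT2 these were 0.24 for Fasn, 0.23 for Mvd, −0.15 for Pmvk, −0.0047 for Acaca and −0.23 for Scd1, so the first pair changed direction. Of the 5 fatty acid enzymes 4 were negative (median −0.50), and without WT2 the median was 0.08 with 3 positive. Sterol enzymes parted evenly, with 7 positive and 9 negative and a median of −0.03, against −0.00055 and 49.3% positive over all tested genes. With Benjamini-Hochberg adjustment, edgeR's quasi-likelihood test called no gene (0 of 10265, 0%), and DESeq2 and limma on log2(TPM + 1) called 0. An unadjusted p under 0.05 was reached by 106 genes (1.03%), none of them among the 25. Both pKO libraries stood above both WT libraries for Idi1, Cyp51 and Ebp (3 of 25, against 12% of all tested genes) and below them for Pmvk, Dhcr7 and Scd1 (3 of 25, against 12.9% of all). Idi1 had 16.6 and 14.7 CPM in pKO and 8.96 and 12.5 CPM in WT, and Ebp had 32.8 and 30.6 CPM against 29.5 and 12.5 CPM. Both counts lie at the background of the comparison.

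**Figure D3:**
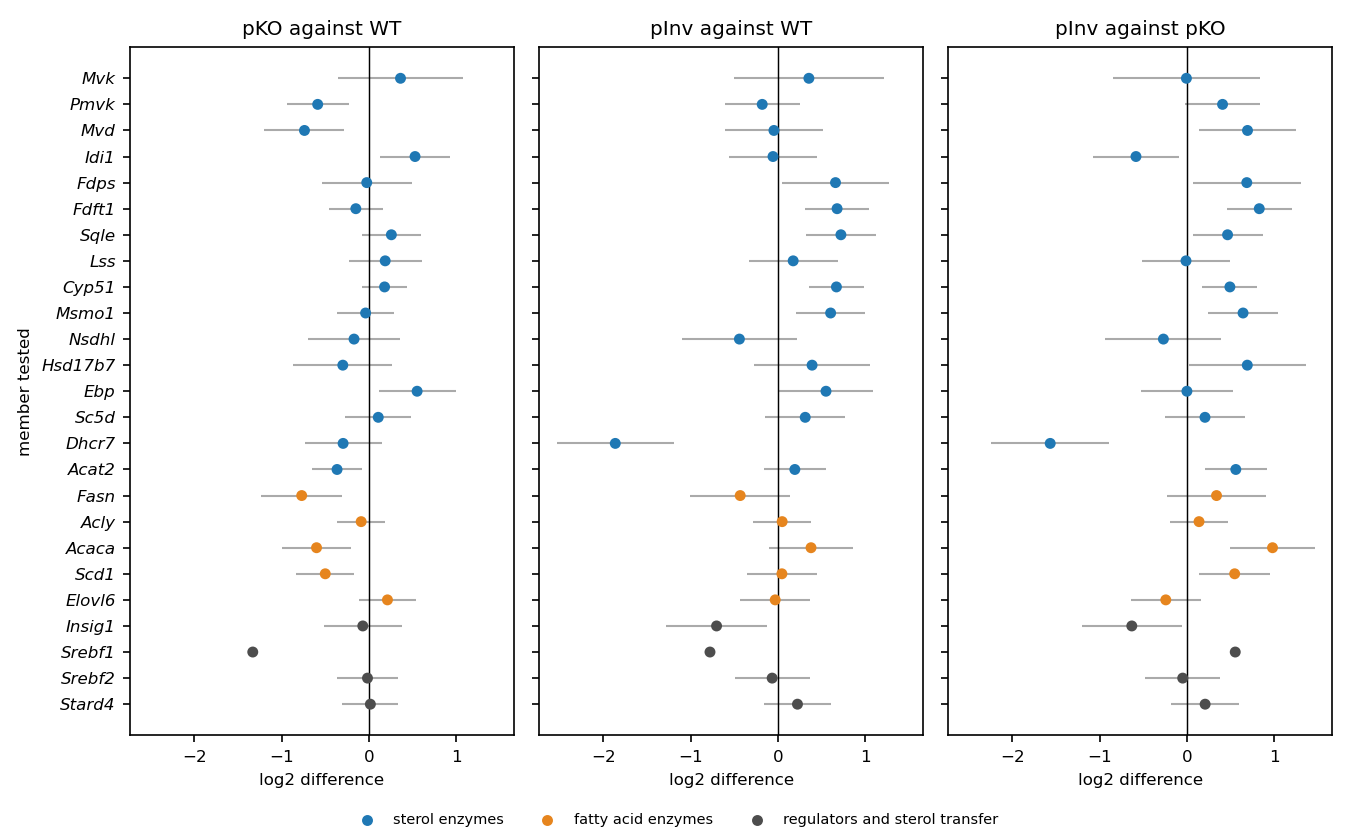
Log2 difference of each tested gene (horizontal axis; points, with bars of 1 SE) for pKO against WT, pInv against WT and pInv against pKO, coloured by list. Srebf1, with 0 counts in 3 libraries, is drawn without a bar because its SE was very large or missing. That SE was 2.71 for pInv against WT, and none was obtained for pKO against WT. Dhcr7 lies farthest left in both comparisons with pInv (−1.86 and −1.57), while Fdft1, Sqle, Cyp51 and Msmo1 lie right of 0 there.

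Several genes differed more between libraries of 1 group than between groups. Fdps was near the same pair of levels in both groups, 51.8 CPM in pKO1 and 22.9 CPM in pKO2, and 52.6 CPM in WT1 and 22.7 CPM in WT2. Mvk had 15.2 CPM in pKO1 and 6.13 CPM in pKO2, and 12.7 CPM in WT1 and 2.99 CPM in WT2. The merged row of Scd2 and Mir5114 had 181 CPM in pKO1 and 73.5 CPM in pKO2, and 158 CPM in WT1 and 49.6 CPM in WT2. In each of these the libraries numbered 2 were the low ones. The library numbered 2 was the lower one in both groups for 9 of the 25 genes, against 31.3% of all tested genes, and the higher one in both for 10, against 30.3%. Both totals lie near the shares over all tested genes. Of the 9 lower ones 8 are sterol enzymes (Mvk, Fdps, Fdft1, Sqle, Lss, Hsd17b7, Ebp and Dhcr7). The 10 higher ones hold 5 other sterol enzymes (Pmvk, Cyp51, Nsdhl, Sc5d and Acat2) and 3 of the 5 fatty acid enzymes (Fasn, Acaca and Scd1).

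The comparison of KD with Ctrl asks what the knockdown of Meteor does. It has 1 library each, so replicates cannot check it, no p-value is given, and ratios carry exact 95% counting intervals. Late sterol enzymes stood higher in KD. Sterol-C5-desaturase (Sc5d) had 22.5 CPM in KD and 9.61 CPM in Ctrl, a ratio of 2.34 (interval 1.36 to 4.22). It had 16.5 CPM in pInv, 11.9 and 16.3 CPM in pKO and 13.1 CPM in both WT libraries, so KD was the highest of the 7 and Ctrl the lowest. Dhcr7, the next step, had 10.6 CPM in KD and 4.04 CPM in Ctrl (2.61, 1.13 to 6.76). Nsdhl, which removes a methyl group after Msmo1, had 11.0 CPM in KD and 5.06 CPM in Ctrl (2.18, 1.01 to 5.11), with 6.33 CPM in pInv, 6.18 and 9.39 CPM in pKO and 6.34 and 11.9 CPM in WT. In Dhcr7 and Nsdhl the KD level lay within the range of pKO and WT, and it was Ctrl that stood below it. Fdft1 had a ratio of 1.54 (1.24 to 1.93) and Fdps one of 1.36 (1.01 to 1.84).

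Srebf1 was close to absent outside KD. It had 14 counts in KD (6.44 CPM) and 1 count in Ctrl, a ratio of 12.7 with an interval of 1.94 to 538. In the other libraries it had 1 count in pInv, 0 in both pKO libraries, 0 in WT1 and 5 in WT2. Srebf2 had 40.9 CPM in KD, 52.1 CPM in Ctrl, 51.1 CPM in pInv, 49.5 and 56.4 CPM in pKO and 39.2 and 68.7 CPM in WT, and its KD to Ctrl interval of 0.585 to 1.05 included 1. The sterol carrier Stard4 varied least of the regulators, between 32.8 CPM in WT1 and 43.5 CPM in pInv. Insig1 had a KD to Ctrl ratio of 1.74 (0.832 to 3.84).

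At 20 CPM or more in either library, 1 of 17 pathway genes (Sc5d) was 2-fold or more higher in KD, against 4.03% of 5083 features, and 0 were 2-fold or more lower, against 1.26%. Of 16 tested sterol enzymes 14 had a ratio above 1, with a median log2 ratio of 0.18. Over all tested genes 51.0% had one, with a median of 0.01. The fatty acid enzymes had a median of 0.17, with ratios from 0.979 for Acaca to 1.19 for Scd1, and each interval included 1. For Fasn the ratio was 1.02 (0.918 to 1.12). The merged row of Scd2 and Mir5114 had 219 CPM in KD and 95.5 CPM in Ctrl, a ratio of 2.29 (1.93 to 2.72), and 120.4 CPM in pInv. Of 6 macrophage markers 5 were detected in KD and 3 in Ctrl, with sums of 256 CPM in KD and 1.52 CPM in Ctrl, and 1.19 to 3.80 CPM in the other libraries. Lyz2 had 174 CPM and Csf1r 12.4 CPM in KD, Csf1r was at 0 in the other 6 libraries, and C1qa was at 0 in KD. All 10 streak and nascent mesoderm markers were detected in both, and they summed to 2706 CPM in KD and 1704 CPM in Ctrl. The part of these cells in the KD ratios was not tested.

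**Figure D4:**
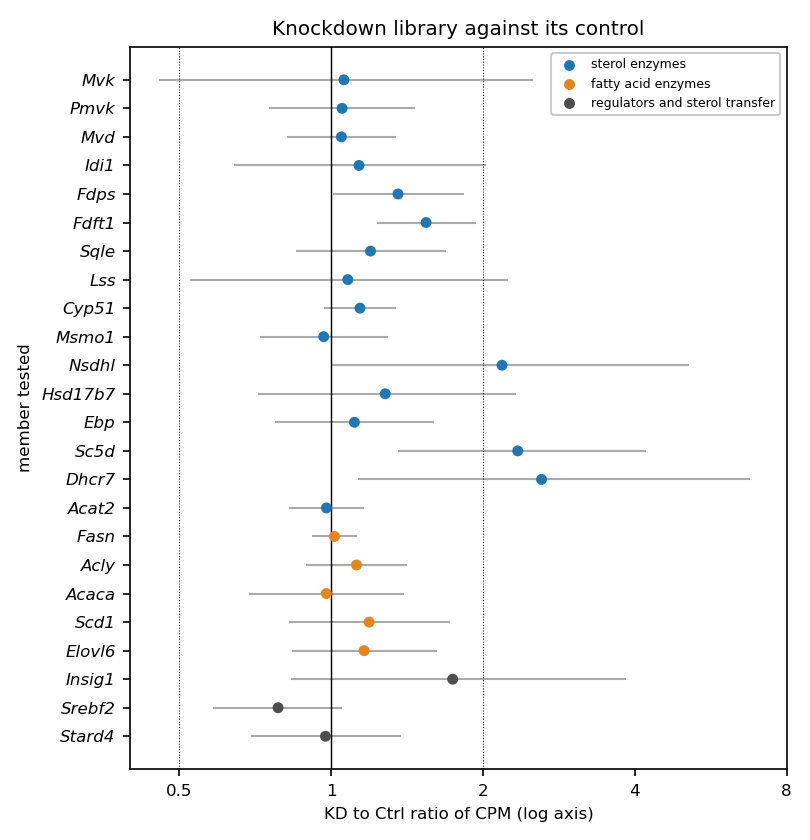
Ratio of CPM in KD to CPM in Ctrl for each tested gene except Srebf1 (points, log axis) with exact 95% counting intervals (bars), coloured by list; dotted lines mark 2-fold. Sc5d, Dhcr7 and Nsdhl lie above 2, while Fasn lies at 1.02 with an interval of 0.918 to 1.12.

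Some genes gave little to read. Hmgcs1, which makes HMG-CoA, had 1 count each in KD, Ctrl and pKO2 and 0 counts in the other 4 libraries, and the sterol reductase Tm7sf2 had 0 to 5 counts. Lss, which closes the sterol ring, lay between 8.09 and 13.3 CPM in all 7 libraries. Elovl6, which lengthens fatty acids, ran from 32.8 CPM in WT1 to 48.0 CPM in pKO1, and Acly from 70.8 CPM in Ctrl to 101 CPM in WT2. In the GENCODE annotation, exons of Cyp51, Fdft1, Lss, Idi1, Srebf1 and Hmgcs1 overlap those of a gene on the other strand, and exons of Fdps and Tm7sf2 overlap those of a gene on the same strand. Whether the counting used strand is not given in the sources used here, so reads of these genes and their neighbours may be mixed. Acat2 has a close relative, Acat3, with which it could share reads.

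None of the further genes of these routes passed in edgeR's test. Of 5 further sterol genes, all tested, 1 was higher and 4 lower in pInv than in WT, 2 higher and 3 lower in pKO than in WT, and 1 higher and 4 lower in pInv than in pKO. Of 15 tested genes of further fatty acid synthesis, 12 were higher in pInv than in pKO and 10 were higher in pInv than in WT, while 4 were higher in pKO than in WT. The acyl-CoA ligase Acsl4 was lower in KD, at 17.5 CPM, than in Ctrl, at 35.9 CPM (ratio 0.487, 0.319 to 0.732), and stood at 18.8 CPM in pKO2 and 16.1 CPM in WT2. Among genes of uptake, transport and sensing, the SREBP-cleaving protease Mbtps1 had 175 CPM in pInv, 122 and 74.7 CPM in pKO and 95.1 and 58.0 CPM in WT. Its log2 difference from WT was 1.18 (SE 0.44), and its adjusted p in edgeR's test was 1. Scap, which escorts SREBP proteins out of the endoplasmic reticulum, had 18.6 CPM in pInv, 10.9 and 8.17 CPM in pKO and 10.8 and 3.59 CPM in WT, a log2 difference from WT of 1.22 (SE 0.66). Both were highest in pInv. Of 10 tested genes of that kind, 5 were higher in pInv than in WT, 8 in pInv than in pKO and 5 in pKO than in WT.

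The other genes with the smallest p were low or variable. The elongase Elovl1 had 8.87 CPM in pInv, 11.9 and 24.1 CPM in pKO and 16.4 and 26.3 CPM in WT, a log2 difference of pInv from WT of −1.17 (SE 0.60). Against pKO, pInv differed by 0.94 (SE 0.52) for the enoyl reductase Tecr and by −1.06 (SE 0.63) for the cholesterol exporter of lysosomes, Npc1. For pKO against WT, Insig2 differed by −0.98 (SE 0.60), with 2.38 and 6.54 CPM in pKO and 8.96 and 10.8 CPM in WT. The dehydratase Hacd2 differed by −0.96 (SE 0.78) between pKO and WT. The largest KD to Ctrl ratios in size rested on a few counts, with 1 count in KD and 6 in Ctrl for the carboxylase Acacb.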

How the data were processed

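Polyadenylated RNA was read with the Lexogen QuantSeq 3′ kit, per the labels' protocols. Each deposited file holds an expected count, a TPM and an FPKM per feature, per the file headers, and RSEM and mm9 are named in the submitters' processing notes. The deposited expected counts carry no scaling and were rounded to whole numbers. TPM as deposited, adjusted for length and depth, served in 1 alternative, and the deposited FPKM column in none. Groups follow the titles. Genes, lists and comparisons were chosen with earlier results of these data known.

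Names came from RefSeq gene numbers, and all 27 pathway rows are single-gene rows. Tests ran in R 4.3.3 with edgeR 4.0.16. Its filterByExpr filter kept 10265 features. After TMM scaling, a single quasi-likelihood model by group held all 7 libraries, which leaves 2 residual degrees of freedom and had a common biological coefficient of variation of 0.294. Benjamini-Hochberg adjusted p under 0.05 was called. The prior count behind log2 differences was 2. For KD and Ctrl the ratio was taken, with 2-fold at 20 CPM as the call. Values in every library are given for the 4 pathway genes with the smallest p, or largest ratio, per comparison, and for Hmgcs1, Sqle, Insig1, Srebf1, Srebf2, Fasn, Acaca, Scd1 and the Scd2 row. Steps were tested on simulated counts. Alternatives used DESeq2 1.42.0, limma 3.58.1, other filters, scalings and groupings, and each WT and pKO library left out.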

Additional observations from a re-analysis of the deposited data

How the results depend on the processing

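Each group held 2 libraries at most, the titles and the genotype field disagree, and low genes such as Dhcr7 rest on few counts. Gene calls were 0 as reported. Without the filter on low counts pKO against WT gave 9, pInv against WT 6 and pInv against pKO 8, and leaving out single libraries gave 0 to 7, 0 to 0 and 0 to 7. For pKO against WT these were 4 without pKO1 and 7 without pKO2, and for pInv against pKO 2 and 7. Groups from the genotype field gave 7 calls for pInv against WT. For KD against Ctrl, 269 features passed the fold, 405 with totals that leave out the most abundant feature, 833 at 1.5-fold and 694 at 10 CPM.

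For pKO against WT, leaving out single libraries gave list medians of −0.27 to 0.11 for sterol enzymes, −0.72 to 0.080 for fatty acid enzymes and −0.26 to 0.11 for regulators. For pInv against WT the ranges were 0.21 to 0.36, −0.18 to 0.29 and −0.48 to 0.38, and for pInv against pKO 0.38 to 0.43, 0.18 to 0.47 and 0.01 to 0.12. With only the WT, pKO and pInv libraries, 3 regulators were tested for pInv against WT, with a median of −0.090. With groups from the genotype field the fatty acid median was 0.051 for pKO against WT, and the sterol and fatty acid medians were −0.094 and −0.38 for pInv against WT and 0.11 and −0.68 for pInv against pKO. The same grouping reversed Ebp (−0.52) and Fasn (0.53) for pKO against WT and Dhcr7 (0.86) for pInv against WT. For pInv against pKO it reversed Mvd (−0.73), Idi1 (0.61), Acat2 (−0.48), Acaca (−0.69) and Scd1 (−0.68). The cause of each was not tested.

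Libraries of WT and pKO with the same number share only that number, and the correlation across tested genes of WT1 minus WT2 with pKO1 minus pKO2 was 0.31. A fit with the replicate block called 0 genes for pKO against WT, with list medians of −0.01 for sterol enzymes, −0.49 for fatty acid enzymes and 0.03 for regulators.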

Other observations

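Fatty acid oxidation, the breakdown route, was measured through 10 genes, all tested. In pKO 5 were higher and 5 lower than in WT, in pInv 5 were higher and 5 lower than in WT, and in pInv 7 were higher than in pKO. With Benjamini-Hochberg adjustment, edgeR's quasi-likelihood test called none of them. The smallest p for pKO against WT was that of Hadhb, a subunit of the mitochondrial trifunctional protein, with a log2 difference of −0.80 (SE 0.84) and levels of 1.43 and 1.63 CPM in pKO and 4.10 and 2.39 CPM in WT. Cpt1a, which carries fatty acids towards the mitochondrion, had 2 counts in KD and 10 in Ctrl (ratio 0.182, with 95% bounds from counting alone of 0.0194 and 0.853).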
